A study of Mus musculus with 6 samples.

Results

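The genes described here are 33 cartilage genes of the mouse hindlimb bud: 12 regulators, 10 genes of the early cartilage matrix, 9 of the late matrix and 2 for enzymes of matrix sulfation. They were chosen by name, with no measured value in the rule, but with earlier results of these data known. Each was read from the probe set that the array annotation gives exactly its symbol and, where several did, from the one with the highest mean over the 6 arrays. All 33 were measured, out of 18193 genes tested, and no filter on low values was applied. Expression came from E11.5 proximal hindlimb buds of 129Sv mice. There were 3 wild-type pools and 3 Lmx1b -/- pools (called Lmx1b-null), each on 1 array. A pool joined the buds of 3 embryos, 6 hindlimbs in all, from about 500 µm of proximal tissue, so differences between single embryos and between dorsal and ventral tissue were averaged within a pool. Both groups shared the strain, stage and tissue; the labels do not say how the Lmx1b allele was made or whether the pools came from shared litters. The study asked which genes LMX1B, the LIM homeodomain factor of dorsal limb mesenchyme, controls in the hindlimb.

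Cartilage of the limb begins when mesenchymal cells condense. SOX9 switches on the cartilage programme in these cells, SOX5 and SOX6 strengthen its action, and the cells then lay down type II, IX and XI collagens with aggrecan, held together by link protein. Other matrix proteins, such as matrilins, COMP and chondroadherin, are best known from more mature cartilage. BMP signals promote the programme, and Indian hedgehog, the parathyroid hormone receptor and FGFR3 act later, in the growth plate.

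Values are log2 RMA, the authors' background-corrected and normalized array values on a log2 scale. A change is the null mean minus the wild-type mean on that scale, with its standard error (SE) from limma, whose adjusted p is by Benjamini-Hochberg over all 18193 genes. A gene was said to have risen or fallen where that p was under 0.05. Where the value of every pool is given, the order is pool 1, 2 and 3. Levels of different probe sets are not comparable between genes. Of all genes, 19 passed, 16 lower and 3 higher in null pools (0.104% of those tested). Arrays correlated at 0.993 to 0.997. Lmx1b stood at 8.02, 7.58 and 8.17 in the wild-type pools and at 4.62, 4.23 and 4.57 in the null pools (change -3.45, SE 0.16; limma adjusted p = 0.00026), as the labels imply; its dimmer probe set, at 3.93 and 3.92, checks nothing, since the part of the gene it reads was not known here. The limb mesenchyme genes Prrx1 and Twist1 and the hindlimb genes Tbx4 and Pitx1 were bright in every pool. The mean level of the 6 limb mesenchyme markers lay between 9.74 and 9.94. Of these 6, 4 were lower and 2 higher in null pools, with a median change of -0.12, and 0 passed. Tbx4 (-0.29) and Prrx1 (-0.13) had all null pools below the wild-type pools, and Twist1 (0.14) had all of them above. Among all genes, 5.44% had all null pools below and 9.16% had all above.

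Of the 33 cartilage genes, 1 fell and 0 rose. Cnmd, which encodes chondromodulin, a cartilage glycoprotein that inhibits blood vessel growth, fell 3.38-fold. The remaining 32 did not pass, among them the cartilage master gene Sox9 and the main cartilage collagen gene Col2a1. The share of all genes past the threshold was 0.0879% in the lower and 0.0165% in the higher direction. At an unadjusted p under 0.05, 7 cartilage genes were lower and 1 was higher, or 24.2% of the 33, where 9.8% of all genes reached that limit, 3.88% lower and 5.92% higher. The 3 null values all lay below the 3 wild-type values in 5 of the 33, or 15.2%, against 5.44% of all genes, and all above them in 1, or 3.03%, against 9.16%. By sign alone 25 of 33 were lower in null pools, against 43% of all genes, and the median change was -0.09 against 0.02 for all genes. Since the list was made with earlier results of these data known, these shares describe it and test nothing.

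Cnmd stood at 6.31, 6.97 and 6.93 in the wild-type pools and at 5.11, 5.20 and 4.62 in the null pools. The groups did not overlap, and the gap between the lowest wild-type and the highest null pool was wider than the spread within either group. From 6.74 ± 0.37 (SD, n = 3) in wild-type the mean dropped to 4.98 ± 0.31 (SD, n = 3), a log2 change of -1.76 (SE 0.21, 95% interval -2.23 to -1.28; limma adjusted p = 0.0354). Among all genes it ranked 8 by the size of its fall. In a whole-tissue sample, fewer cells that express a gene and less RNA per cell cannot be told apart. Cnmd is on chromosome 14, where 3 of 641 tested genes passed, the other two being Rpgrip1 (lower) and Ebf2 (higher); the part of that location in the result was not tested. The call held without wild-type pool 1 (adjusted p = 0.00804) and was lost without any of the other 5 pools, where the adjusted p ran from 0.0789 to 0.171 and the change from -1.87 to -1.58.

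**Figure D1:**
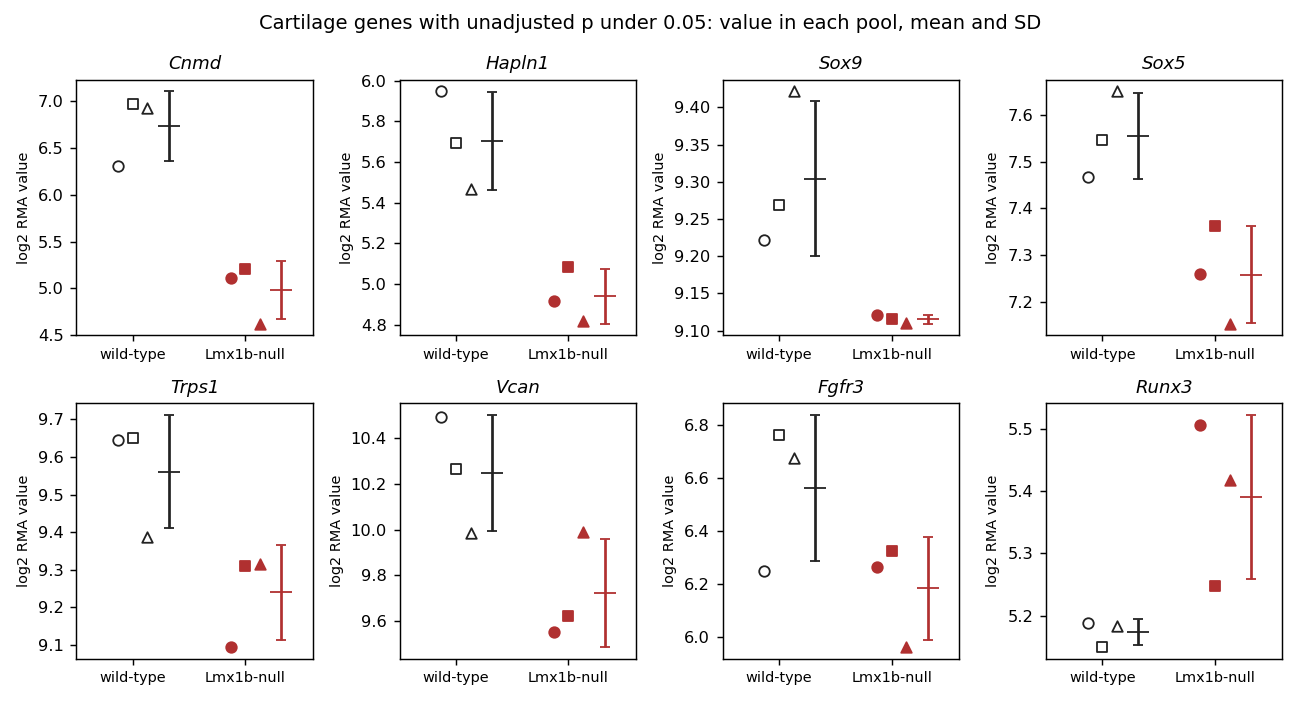
Log2 RMA values (vertical axes, each with its own range) of the 8 cartilage genes with an unadjusted p under 0.05, for 3 wild-type pools (open symbols) and 3 Lmx1b-null pools (filled symbols); circle, square and triangle are pools 1, 2 and 3, and the bar beside them is the mean with the SD. Cnmd and Hapln1 have the widest gaps between groups, Vcan and Fgfr3 overlap, and Runx3 is higher in null pools.

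Hapln1, the gene of the link protein that ties aggrecan to hyaluronan, came closest after Cnmd. It stood at 5.95, 5.69 and 5.47 in the wild-type pools and at 4.92, 5.08 and 4.82 in the null pools, with no overlap. The change was -0.76 (SE 0.12, 95% interval -1.05 to -0.47), or 1.70-fold, with a limma adjusted p of 0.102, so it did not pass. Its 3 dimmer probe sets changed by -0.26 to -0.56. All 4 probe sets had an unadjusted p under 0.05, where 9.41% of all probe sets did, but they measure the same RNA and are not independent.

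The promoters of 27 of the 33 genes were found in a RefSeq table of GRCm38.p6, as 41 windows that run from 250 bases before to 50 bases after a gene start. Those of Cnmd and Hapln1 are printed because these genes had the smallest p-values. That of Col11a2 is printed because it holds 2 matches to TAATTA, a core recognised by LIM homeodomain proteins, while its level did not pass the test. Each is shown 5′ to 3′ from 250 bases before to 30 bases after the start, with TAATTA in capitals.
Cnmd (chr14:79662154-79662433, minus strand): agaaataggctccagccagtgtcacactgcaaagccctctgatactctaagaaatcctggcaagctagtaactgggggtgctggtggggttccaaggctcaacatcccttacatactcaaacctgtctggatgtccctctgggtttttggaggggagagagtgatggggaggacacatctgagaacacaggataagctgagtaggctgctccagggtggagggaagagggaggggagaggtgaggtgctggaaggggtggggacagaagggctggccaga
Hapln1 (chr13:89540386-89540665, plus strand): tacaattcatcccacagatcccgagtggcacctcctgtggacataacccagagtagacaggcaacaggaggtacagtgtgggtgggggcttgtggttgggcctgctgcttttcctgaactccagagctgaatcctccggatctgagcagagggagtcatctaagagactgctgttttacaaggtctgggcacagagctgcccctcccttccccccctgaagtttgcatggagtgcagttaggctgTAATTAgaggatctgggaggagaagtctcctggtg
Col11a2 (chr17:34038888-34039167, plus strand): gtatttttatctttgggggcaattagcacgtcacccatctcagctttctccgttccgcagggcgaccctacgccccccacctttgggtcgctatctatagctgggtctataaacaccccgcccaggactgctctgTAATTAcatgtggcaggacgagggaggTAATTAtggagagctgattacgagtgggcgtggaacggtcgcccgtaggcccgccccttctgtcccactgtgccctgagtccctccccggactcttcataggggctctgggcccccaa
Hapln1 had 1 TAATTA, which began 5 bases before the start and ran across it. Col11a2 had 2, which began 115 and 88 bases before the start, and Cnmd had 0 in its window. On either strand (TAATTA reads the same on both), 3 of the 41 windows held it, or 7.32%, against 5.29% of all 32851 windows; the 3 genes were Hapln1, Col11a2 and Pth1r. The SOX cores ACAAAG and ACAATG, sought on both strands and free to overlap another match, were in 9 and 4 of the 41 windows, or 22.0% and 9.76%, against 18.7% and 12.6% of all windows. They lay in windows of Bmpr1b, Sox6 and Pth1r, and of Bmpr1b, Sox5 and Sox6. Bmpr1b and Sox6 each have several windows. These are matches of letters, not measured binding sites.

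Of the 12 regulators 9 were lower by sign, none passed, and no change exceeded 0.38 in size. Sox9 stood at 9.22, 9.27 and 9.42 in the wild-type pools and at 9.12, 9.11 and 9.11 in the null pools. The 3 null pools were nearly equal and all lay just below the wild-type pools. The change was -0.19 (SE 0.07, 95% interval -0.35 to -0.03; limma adjusted p = 0.448), or 1.14-fold. Sox5, the gene of a SOX9 cofactor, stood at 7.47, 7.55 and 7.65 in the wild-type pools and at 7.26, 7.36 and 7.15 in the null pools, again with no overlap. Its change was -0.30 (SE 0.08, 95% interval -0.48 to -0.11; limma adjusted p = 0.314), or 1.23-fold. Sox6, the partner of Sox5, stood at 7.11, 7.66 and 7.50 in the wild-type pools and at 7.36, 7.34 and 7.38 in the null pools. Here wild-type pool 1 was the lowest of all 6 pools, the groups overlapped, and the change was -0.06 (SE 0.13; limma adjusted p = 0.91).

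Trps1, which encodes a zinc finger repressor of chondrocyte maturation, stood at 9.65, 9.65 and 9.39 in the wild-type pools and at 9.09, 9.31 and 9.31 in the null pools. The groups did not overlap, and the change was -0.32 (SE 0.10; limma adjusted p = 0.375). Runx3, the gene of a runt-family factor of chondrocyte maturation, was the 1 cartilage gene whose null pools all lay above the wild-type pools. It stood at 5.19, 5.15 and 5.18 in the wild-type pools and at 5.51, 5.25 and 5.42 in the null pools, a change of 0.22 (SE 0.08; limma adjusted p = 0.435). Barx1 and Nkx3-2, homeobox genes known from joints and from axial cartilage, changed by 0.00 and -0.09. Nkx3-2 was near the bottom of the range, below the lower quartile of all probe sets (3.33), at 3.05, 3.29 and 3.33 in wild-type and 3.31, 3.08 and 3.01 in null pools, so a change there could be compressed.

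Of the receptor genes, Fgfr3, a brake on chondrocyte growth, had the largest change. It stood at 6.25, 6.76 and 6.68 in the wild-type pools and at 6.27, 6.32 and 5.96 in the null pools. Wild-type pool 1 lay among the null pools, and the change was -0.38 (SE 0.15; limma adjusted p = 0.471). Bmpr1b, the BMP receptor of condensing cartilage, changed by -0.08 (95% interval -0.28 to 0.12) and Pth1r, the parathyroid hormone receptor gene, by 0.06 (95% interval -0.14 to 0.27). Ihh, the growth plate hedgehog ligand gene, stood at 3.72, 4.07 and 4.07 in the wild-type pools and at 3.93, 3.84 and 4.06 in the null pools, a change of -0.01. Wwp2, a ubiquitin ligase gene that SOX9 activates in cartilage, stood at 8.99, 9.50 and 9.67 in the wild-type pools and at 9.20, 9.12 and 9.16 in the null pools (change -0.23, SE 0.16; limma adjusted p = 0.669). Of these 5 genes none passed, and the groups overlapped in all 5.

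**Figure D2:**
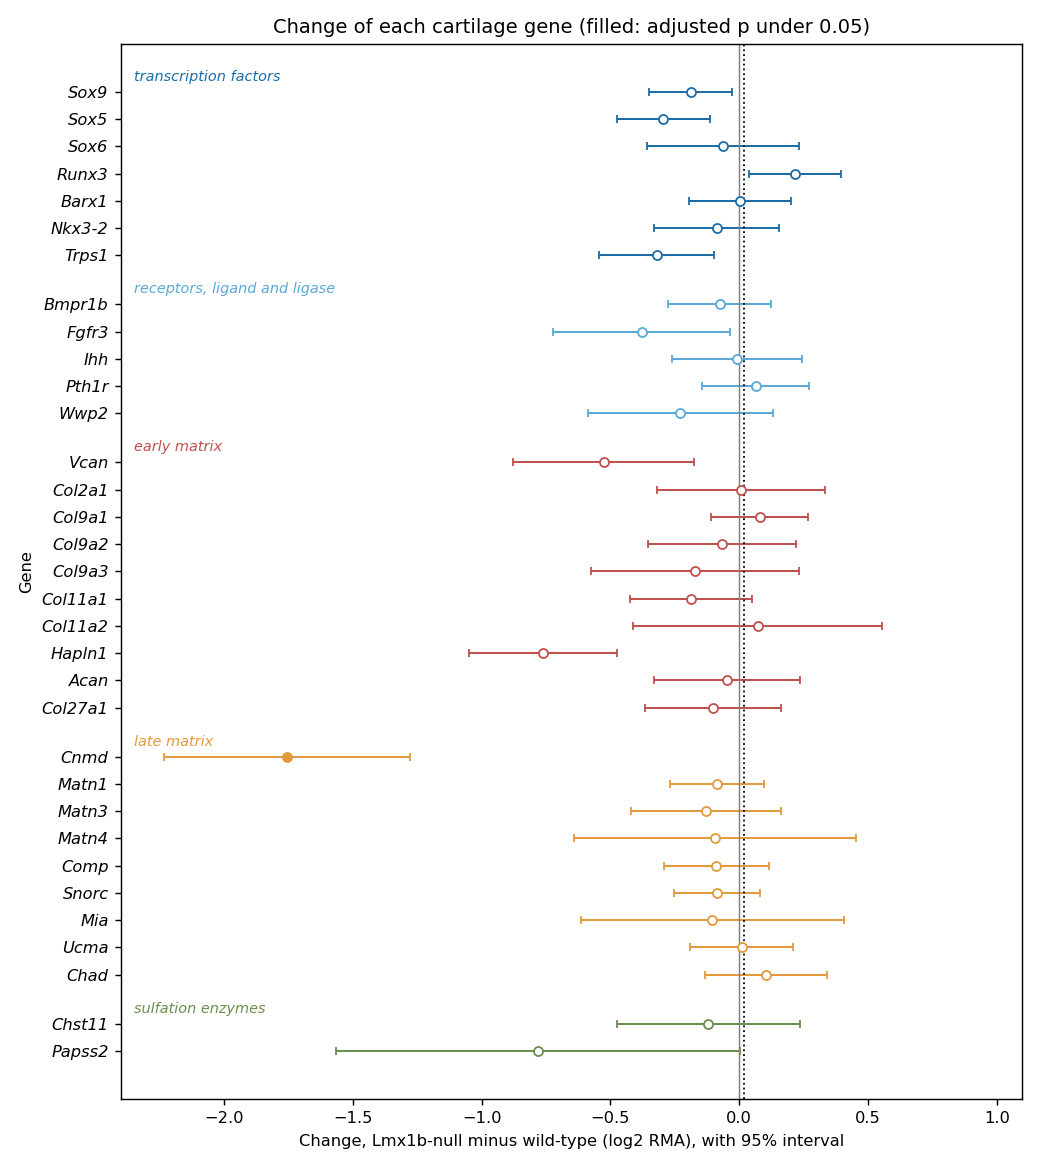
Change of each of the 33 cartilage genes (horizontal axis, Lmx1b-null minus wild-type, log2 RMA) with its 95% interval, by role; filled points have a limma adjusted p under 0.05, the solid line is 0 and the dotted line the median change of all genes (0.02). Cnmd, at -1.76, is the only filled point, and the intervals of Hapln1, Vcan, Trps1, Sox5, Sox9 and Fgfr3 lie below 0 and that of Runx3 above it.

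None of the 10 early matrix genes passed. Hapln1 and Vcan had changes of -0.76 and -0.53, and the other 8 lay between -0.19 and 0.08. Col2a1 stood at 10.81, 11.19 and 11.41 in the wild-type pools and at 11.15, 11.04 and 11.23 in the null pools. All null pools lay inside the wild-type range, and the change was 0.01 (SE 0.14, 95% interval -0.32 to 0.33; limma adjusted p = 0.99). The 95% intervals of the other 6 collagen genes also included 0. Col9a1, Col9a2 and Col9a3, the chains of the type IX collagen on the fibril surface, changed by 0.08, -0.07 and -0.17. Col11a1 and Col11a2, chains of the type XI fibril core, changed by -0.19 and 0.07, and the fibrillar collagen gene Col27a1 by -0.10. Acan, the aggrecan gene, stood at 4.08, 4.54 and 4.39 in the wild-type pools and at 4.26, 4.17 and 4.44 in the null pools, a change of -0.05 (95% interval -0.33 to 0.24). Vcan, the gene of versican, the large proteoglycan of condensing mesenchyme, stood at 10.49, 10.27 and 9.99 in the wild-type pools and at 9.55, 9.62 and 9.99 in the null pools. Its lowest wild-type and highest null pool met at the same level, and the change was -0.53 (SE 0.15; limma adjusted p = 0.355), or 1.44-fold. The 3 next brightest of its 8 probe sets changed by -0.64, -0.64 and -0.41, and the 4 dimmest, all below the lower quartile, by -0.14 to 0.05.

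Apart from Cnmd, none of the 9 late matrix genes passed. Matn4, a matrilin gene, stood at 6.22, 7.02 and 7.20 in the wild-type pools and at 6.86, 6.48 and 6.81 in the null pools. Its null pools lay inside the wild-type range (change -0.09, SE 0.24). Matn1, the cartilage matrilin gene, stood at 3.23, 3.38 and 3.38 in the wild-type pools and at 3.28, 3.33 and 3.12 in the null pools, close to the lower quartile (change -0.09, SE 0.08). Matn3, another matrilin gene, changed by -0.13, and Comp, whose product links collagen fibrils, by -0.09. Snorc, a cartilage transmembrane proteoglycan gene, and Mia, a secreted cartilage protein gene, changed by -0.09 and -0.10. Ucma, known from the upper growth plate, and Chad, the chondroadherin gene, changed by 0.01 and 0.10. At the probe sets used, the groups overlapped in all 8, whose limma adjusted p ran from 0.74 to 0.983.

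Neither sulfation enzyme gene passed. Papss2, whose product makes the sulfate donor, had the largest wild-type SD of the 33 genes (0.77). It stood at 5.63, 7.17 and 6.42 in the wild-type pools and at 5.93, 5.44 and 5.51 in the null pools. Its wild-type pools spanned 1.54, more than the change of -0.78 (SE 0.34; limma adjusted p = 0.509). Its 3 dimmer probe sets changed by -0.26, -0.23 and -0.02, and the mean of all 4 by -0.32. Chst11, a chondroitin sulfotransferase gene, stood at 6.55, 7.15 and 7.17 in the wild-type pools and at 6.87, 6.84 and 6.79 in the null pools, with a change of -0.12 (SE 0.15).

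**Figure D3:**
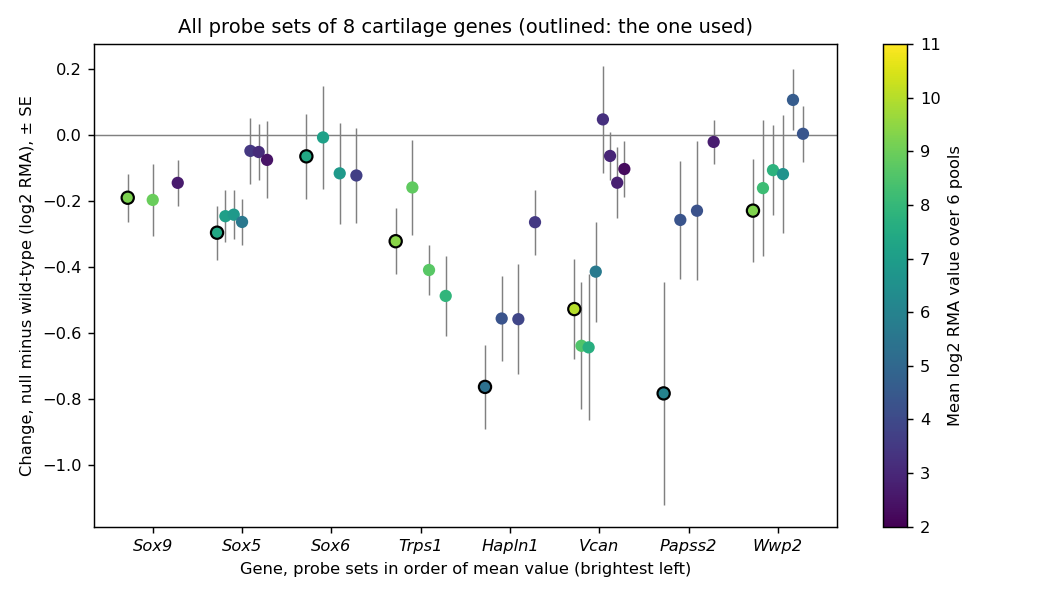
Change (vertical axis, Lmx1b-null minus wild-type, log2 RMA, with the SE) of every probe set of 8 cartilage genes, brightest on the left; colour is the mean log2 RMA value over 6 pools and the outlined point is the probe set used. All probe sets of Sox9, Sox5, Sox6, Trps1, Hapln1 and Papss2 lie below 0, as do 7 of 8 for Vcan and 4 of 6 for Wwp2.

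Several genes had more than 1 probe set, which shows how far a value rests on the choice of probes. All 7 probe sets of Sox5 changed by -0.05 to -0.30, with the 3 dimmest nearest 0, and the 3 of Sox9 by -0.14 to -0.20. Those of Sox6 ranged from -0.01 to -0.12, and the 4 of Trps1 from -0.16 to -0.49. Both Runx3 probe sets were higher, by 0.13 and 0.22. The 2 of Fgfr3 changed by -0.38 and -0.22. The dimmer Matn3 probe set, below the lower quartile, changed by -0.32 with no overlap between groups (limma adjusted p = 0.208 over all probe sets). Other genes had probe sets of both signs: besides Vcan, Wwp2 had 4 lower and 2 higher (-0.23 to 0.11), Bmpr1b 2 lower and 1 higher (-0.08 to 0.04), Col9a1 1 of each (-0.04 and 0.08) and Ucma 1 of each (-0.10 and 0.01). None of these probe sets passed over all 45037 probe sets, of which 38 (0.0844%) did.

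Regulators, early matrix and late matrix genes had like median changes, at -0.08, -0.08 and -0.09. With bright probe sets only, which kept 23 cartilage genes, the medians were -0.19, -0.10 and -0.09. The likeness of regulators to the matrix classes was thus not seen in that fit. It left out the late genes Matn1, Matn3, Comp, Snorc, Mia and Chad, whose mean levels ran from 3.29 to 4.76. Barx1, Nkx3-2, Ihh and Acan were left out too. The split into early and late matrix was made by hand from general knowledge; with Acan, Hapln1 and Col27a1 counted as late, the medians were -0.067 for early and -0.09 for late genes. Lower genes numbered 9 of 12, 7 of 10 and 7 of 9. In the regulators 5 of 12 had an unadjusted p under 0.05, in the early matrix 2 of 10 and in the late matrix 1 of 9, against 9.8% of all genes. Transcription factors gave 4 of those 5, namely Sox5, Sox9, Trps1 and Runx3. Whether the classes differ from each other was not tested.

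By pool, the median deviation of the regulators from their wild-type means was -0.17, 0.08 and 0.09 across the wild-type pools and -0.13, -0.13 and -0.15 across the null pools. For early matrix genes it was -0.25, 0.15 and 0.07 in wild-type and -0.07, -0.19 and -0.05 in null pools. For late matrix genes it was -0.10, 0.05 and 0.05 in wild-type and -0.05, -0.14 and -0.03 in null pools. In each class wild-type pool 1 stood within or below the range of the null pools, and wild-type pools 2 and 3 stood above all 3 null pools.

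**Figure D4:**
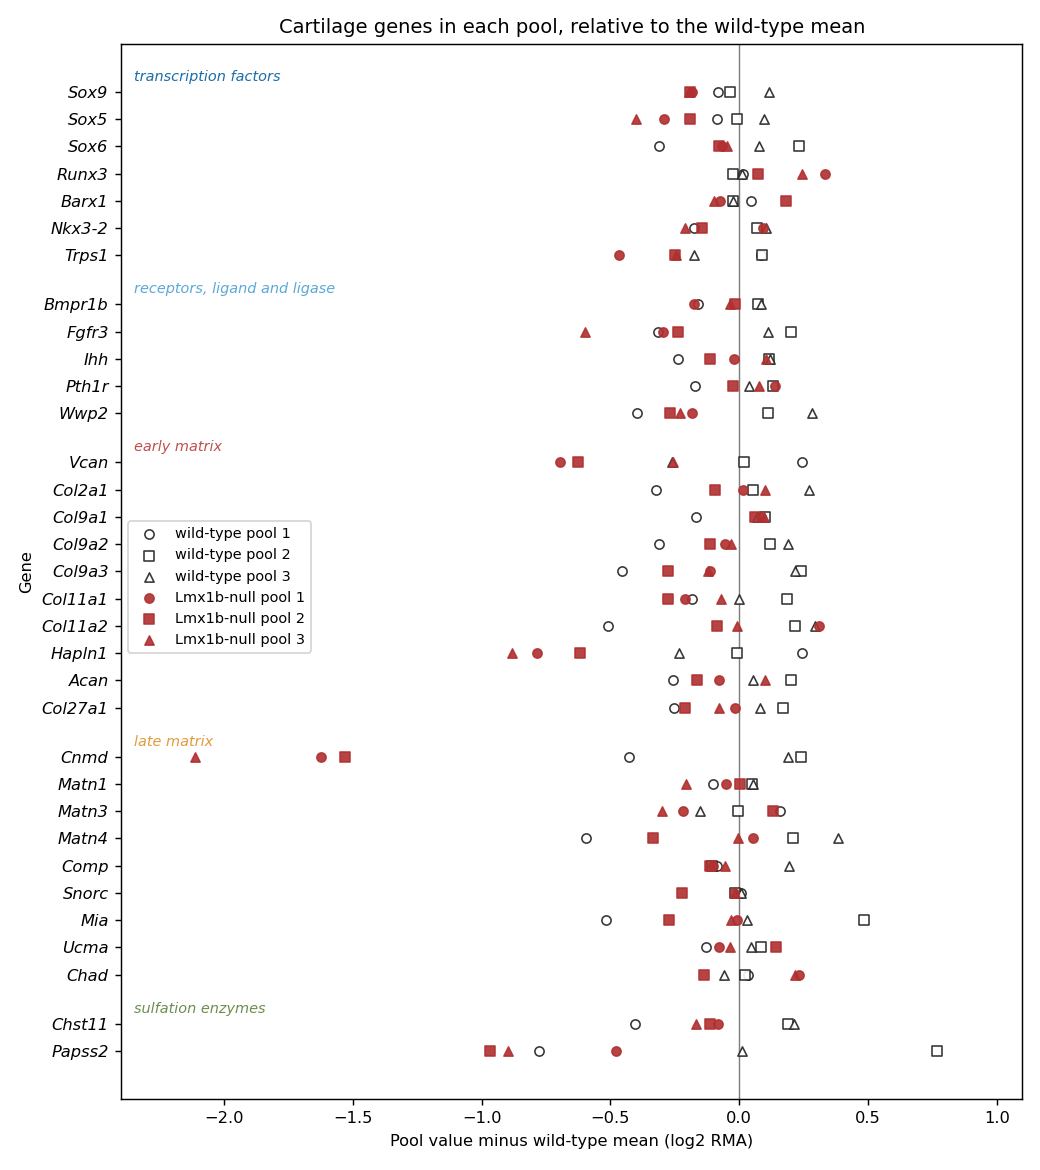
Value of each pool minus the wild-type mean of that gene (horizontal axis, log2 RMA) for the 33 cartilage genes by role; open symbols are wild-type and filled symbols Lmx1b-null pools, and circle, square and triangle are pools 1, 2 and 3. Open circles, wild-type pool 1, are the lowest wild-type value in 24 of 33 genes.

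Wild-type pool 1 was the lowest wild-type pool for 24 of the 33 genes and the lowest of all 6 for 15, where it was so for 43.1% and 27.3% of all genes. It lay furthest below the mean of wild-type pools 2 and 3 in Papss2 (-1.17), Matn4 (-0.89), Mia (-0.78), Col11a2 (-0.77), Col9a3 (-0.68), Cnmd (-0.64), Chst11 (-0.61) and Wwp2 (-0.59). For Col2a1 the difference was -0.49. Hapln1, Vcan, Matn3 and Trps1 went furthest the other way, with wild-type pool 1 above that mean by 0.37, 0.36, 0.24 and 0.13. The wild-type SD was larger than the null SD in 24 of the 33 and in 10 of 10 early matrix genes, against 53.1% of all genes.

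Most markers of muscle, ectoderm and tendon also had their lowest wild-type value in that pool, and most of endothelium and limb mesenchyme did not. The mean level of 7 skeletal muscle markers was 6.37 in wild-type pool 1, 7.23 and 6.90 in wild-type pools 2 and 3 and 7.05 to 7.29 in null pools, and wild-type pool 1 was the lowest wild-type pool for 7 of the 7. Of 6 surface ectoderm markers the mean was 6.62 in that pool, up to 7.05 in the other wild-type pools and 6.94 to 7.10 in null pools, and that pool was the lowest wild-type pool for 5 of the 6. For 4 tendon markers, among them Kera, which fell, the mean was 4.59 to 4.86 in wild-type and 4.20 to 4.26 in null pools. Kera changed by -1.85 and Mkx by -0.48, but Scx by 0.21 and Tnmd, below the lower quartile, by 0.01. Wild-type pool 1 was the lowest wild-type pool for 4 of these 4. For 6 endothelial markers the mean was 6.93 in wild-type pool 1, within the wild-type range of 6.74 to 6.96, and 6.59 to 6.66 in null pools. Tek changed by -0.65, Kdr by -0.22, Pecam1 by -0.19, Emcn and Tie1 by -0.18 each and Cdh5 by -0.06, and 0 passed. Wild-type pool 1 was the lowest wild-type pool for 0 of those 6, for 1 of 6 limb mesenchyme markers, for 0 of 3 osteoblast markers and for 3 of 5 sclerotome and somite markers. The mean of the sclerotome and somite markers was 5.20 to 5.36 in wild-type and 5.51 to 5.72 in null pools. Of these, Pax9 changed by 1.02 and Meox1 by 0.50, but Uncx by 0.10, Pax1 by 0.01 and Tbx6 by -0.03. The mean of the osteoblast markers was 4.06 to 4.17 in wild-type and 4.08 to 4.26 in null pools. In each of the tendon, osteoblast and sclerotome lists 1 marker was below the lower quartile of all probe sets, and the part of these tissues in the cartilage values was not tested.

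Wild-type pool 1 was singled out after its values were seen. Where it lay below the mean of wild-type pools 2 and 3, leaving it out lowers the change by arithmetic. Without wild-type pool 1 the cartilage genes were lower in 30 of 33 cases, against 47.5% of all genes. The median change was then -0.20 for regulators, -0.22 for early matrix genes, of which 10 of 10 were lower, and -0.13 for late matrix genes, against 0.01 for all genes. The change of Col2a1 was then -0.16, of Col9a3 -0.40, of Wwp2 -0.43 and of Papss2 -1.17. Other pools moved these values the other way: without wild-type pool 2 Col9a3 changed by -0.051 and Papss2 by -0.40, and without wild-type pool 3 Col9a3 changed by -0.063 and Wwp2 by -0.086. Cnmd, at -1.97, was the only one of the 33 that passed the threshold without wild-type pool 1. Without wild-type pool 2, 21 of the 33 were lower, and without wild-type pool 3, 22. The share of all genes lower was not computed for the fits without pools 2 and 3. Their median changes over all genes were 0.019 and 0.026.

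**Figure D5:**
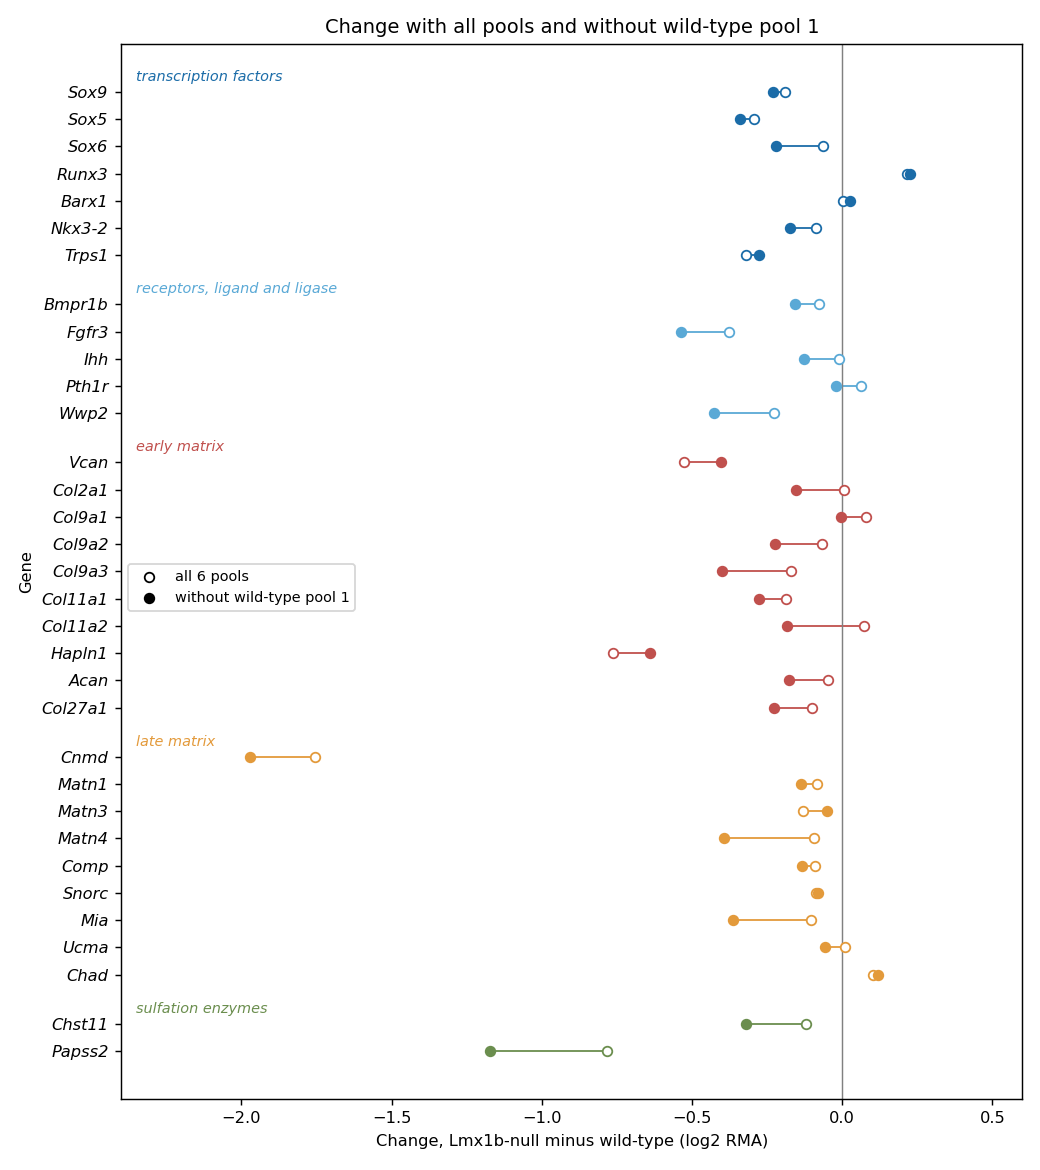
Change of each cartilage gene (horizontal axis, Lmx1b-null minus wild-type, log2 RMA) with all 6 pools (open) and without wild-type pool 1 (filled), by role. Most filled points lie to the left of their open points, by the most for Papss2, while 8 lie to the right, furthest for Hapln1, Vcan, Matn3 and Trps1.

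A wider list of 73 cartilage genes, of which 69 were measured, held 1 that fell, 0 that rose and 68 that did not pass. By sign 34 were lower and 35 higher, with a median change of 0.00, where 25 of the 33 were lower. At a limma unadjusted p under 0.05, 9 of the 69 were lower and 4 higher, against 7 and 1 of the 33. All null pools lay below the wild-type pools in 9 of the 69 and above them in 4, against 5 and 1 of the 33. For comparison, 43% of all genes were lower by sign. At that limma unadjusted p, 3.88% of all genes were lower and 5.92% higher. Their null pools all lay below the wild-type pools in 5.44% of cases and above them in 9.16%. Wild-type pool 1 was the lowest wild-type pool for 50 of the 69, or 72.5%, against 24 of the 33, or 72.7%. The differences between the lists were not tested. Among 19 signalling genes, Grem1, a BMP antagonist gene, fell by 0.61 on the log2 scale (SE 0.06; limma adjusted p = 0.0177). Its call was kept without wild-type pool 1 (adjusted p = 0.0349) and lost without each of the other 5 pools (0.0697 to 0.0888). Gdf5, the joint growth factor gene, changed by -0.88 and Bmp4, a limb BMP ligand gene, by -0.28, while the FGF ligand gene Fgf18, the TGF-beta ligand gene Tgfb2 and the natriuretic peptide receptor gene Npr2 changed by 0.66, 0.34 and 0.22. Only Gdf5 of these passed without wild-type pool 1, its lowest wild-type pool (change -1.18, limma adjusted p = 0.0222).

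Of 17 other chondrogenic factors none passed. Pax9, a paired-box gene of sclerotome and limb, had the largest change, 1.02 (SE 0.19; limma adjusted p = 0.152). Creb5 and Hes1 changed by 0.20 and 0.13, and Zbtb20, Prrx1 and Arid5b by -0.20, -0.13 and -0.14. Of 33 other matrix and sulfation genes none passed. Lox, the collagen cross-linking enzyme gene, changed by -1.15 (SE 0.24, limma adjusted p = 0.204). Lox passed without wild-type pool 1, its lowest wild-type pool (change -1.48, limma adjusted p = 0.000357). As the mean of all its probe sets Lox changed by -0.52. The integrin gene Itgb8 and the matrix gene Edil3 changed by -0.56 and -0.46, and Edil3 by -0.072 as the mean of its probe sets. Fmod, the fibromodulin gene, Fn1, the fibronectin gene, and Omd, the osteomodulin gene, changed by 0.56, 0.24 and 0.16.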

How the data were processed

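The authors deposited 1 log2 value per probe set and array for 6 arrays, made with RMA (background correction, normalization between arrays and summary of probes), per the submitters' processing notes, which name no version. The labels leave the log base unstated, and log2 was taken from the range of the values. Since the arrays were brought to near-equal distributions, a global rise or fall of RNA in either group would be hidden. RNA was extracted with Trizol and columns, per the labels' protocols.

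Of 45101 probe sets, 64 controls were left out. Of the 45037 tested, 34945 had 1 symbol, 932 several and 9160 were unnamed here; 34741 matched a RefSeq table of GRCm38.p6 by gene identifier. With 1 probe set per gene, limma 3.58.1 (R 4.3.3; lmFit and eBayes, no trend, not robust) compared groups over 18193 genes, two-sided, at an adjusted p of 0.05. Exact permutation of 3 against 3 pools cannot go below 0.1. P-values measure the spread between pools, which may be partly technical. The script was tested on simulated data.

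All members are named. Values of every pool are given for members with an unadjusted p under 0.05, the SOX trio, Col2a1, Acan and the brightest and dimmest probe set of each class; of the other cartilage genes, those past the threshold and the 3 with the smallest p per direction and role. Genes most displaced in wild-type pool 1 were picked after their values were seen. The members, lists and classes were chosen with earlier results of these data known. Alternatives were other variance models, scalings, filters, probe set choices, a block on pool number, and each pool left out.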

Additional observations from a re-analysis of the deposited data

How the results depend on the processing

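Cnmd kept its direction under every alternative run, and passed in 9 of the 10 that used all pools. With the replicate block (pool number) 9 genes and 0 of the 33 cartilage genes were called. The limma adjusted p was then 0.0856 for Cnmd and 0.0907 for Grem1. The deviations of equally numbered pools correlated at -0.239, -0.0878 and -0.168. The labels do not say that equal numbers are paired, and these values do not settle whether such pools shared a litter or batch. With the block Cnmd and Grem1 lost their calls. Apart from Cnmd, none of the 33 was called without it. Against 19 genes, 36 were called with an intensity trend, 36 with array weights and 47 at an adjusted p under 0.1, and the cartilage count was 1 in each. With bright probe sets only, which kept 23 of the 33 cartilage genes, the median change of regulators was -0.19. With array weights that of early matrix genes was -0.15. With 1 pool left out, 4 to 37 genes and 0 to 1 cartilage genes were called, and 21 to 30 of the 33 were lower. In these fits the median change over all genes ran from 0.006 to 0.026. The share of all genes lower was computed only without wild-type pool 1 (47.5%). Class medians ran from -0.20 to -0.035 for regulators, -0.22 to -0.01 for early and -0.13 to -0.06 for late matrix genes. Genes that did not pass and changed sign were Col2a1 (-0.034), Col11a2 (-0.015) and Ucma (-0.025) with array weights, Barx1 (-0.013), Col2a1 (-0.0097) and Ucma (-0.0076) with median centring, Barx1 (-0.0098) after repeated quantile normalization, and Ucma (-0.043) as the mean of its probe sets. With 1 pool left out, ranges that crossed 0 were -0.22 to 0.053 for Sox6, -0.087 to 0.054 for Barx1, -0.13 to 0.049 for Ihh, -0.022 to 0.13 for Pth1r, -0.16 to 0.14 for Col2a1, -0.0042 to 0.13 for Col9a1, -0.22 to 0.027 for Col9a2, -0.18 to 0.22 for Col11a2, -0.18 to 0.054 for Acan, -0.39 to 0.10 for Matn4, -0.14 to 0.0071 for Comp, -0.36 to 0.14 for Mia and -0.057 to 0.053 for Ucma. The other 20 kept their sign throughout. The cause of these differences was not tested. The median SE of a change over genes was 0.0783.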
